A study of Mus musculus with 5 samples.

Results

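The genes described here are 7 genes of glycine transmission, found by symbol among the 47729 genes of the deposited count table: the glycine transporters Slc6a5 and Slc6a9, the glycine receptor subunits Glra1, Glra2, Glra3 and Glrb, and the scaffold gene Gphn. Each was measured in 5 mRNA libraries, all from right hemispheres of 5-month-old males of C57BL/6, a widely used inbred mouse strain. No treatment or altered gene is named, and with a single group there was no condition to compare. The libraries are called animals 1 to 5 here, numbers that only name them. Nothing in the labels says that they came from separate mice, so every p-value refers to differences among these libraries alone, and those may be technical. The set was chosen by function and selected on the measured spread of Slc6a5 and Glra1 between these animals, so spreads and ranges of the 7 genes are descriptions, and no call on their spread is read as evidence.

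Glycine is the fast inhibitory transmitter of the brainstem and spinal cord, acts beside GABA there, and is also a co-agonist of NMDA receptors throughout the brain. Neurons that release it take it up through the transporter GlyT2, encoded by Slc6a5, and load it into vesicles through the carrier encoded by Slc32a1, which GABA neurons use too. GlyT1, encoded by Slc6a9, clears glycine into astrocytes and some neurons. Glycine receptors are chloride channels of 5 subunits, built from alpha subunits alone or from alpha and beta, and the beta subunit ties the receptor to gephyrin (Gphn), the scaffold that also holds GABA-A receptors.

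The receptor subunits and the transporters are gene families, and a read can be assigned to a member only where the members differ in sequence. The stretches below are the 90 bases of a single coding exon with the most positions shared over the alignment of each family, 5′ to 3′ in the direction of the gene, from GENCODE M21 transcripts on GRCm38. Capitals mark bases that differ from the first gene of the set, and they are shown because the differences are what separates the counts of one member from those of another.
Glra1: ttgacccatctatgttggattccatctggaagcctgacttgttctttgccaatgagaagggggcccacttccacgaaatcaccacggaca
Glra2: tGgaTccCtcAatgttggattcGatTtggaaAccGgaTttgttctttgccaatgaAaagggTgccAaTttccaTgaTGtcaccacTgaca
Glra3: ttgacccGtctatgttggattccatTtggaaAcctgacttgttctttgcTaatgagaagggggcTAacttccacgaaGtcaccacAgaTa
Glrb: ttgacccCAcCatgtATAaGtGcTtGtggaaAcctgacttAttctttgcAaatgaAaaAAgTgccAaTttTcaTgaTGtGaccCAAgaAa
Slc6a5: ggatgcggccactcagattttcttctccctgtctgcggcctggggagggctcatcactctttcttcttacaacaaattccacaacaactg
Slc6a9: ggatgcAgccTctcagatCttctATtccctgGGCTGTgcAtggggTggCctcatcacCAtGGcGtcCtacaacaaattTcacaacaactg

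In this stretch Glra3 differed from Glra1 at 9 of the 90 bases, Glra2 at 17 and the beta subunit Glrb at 28, while 56 positions were the same in all of the receptor genes. The stretch lies in coding exons at chr11:55536330-55536419 on the minus strand (Glra1, exon 4), chrX:165281872-165281961 on the minus strand (Glra2, exon 4), chr8:56039667-56039756 on the plus strand (Glra3, exon 4) and chr3:80861941-80862030 on the minus strand (Glrb, exon 5). The transporters differed at 21 of 90 bases, at chr7:49938305-49938394 (Slc6a5, exon 9) and chr4:117863921-117864010 (Slc6a9, exon 9), both on the plus strand. Over the whole coding sequence Glra1 was 74.5% identical to Glra3 and 71.7% to Glra2, Glrb was 54.3% to 56.4% identical to the alpha subunits, and Slc6a5 was 60.0% identical to Slc6a9. The longest run of identical coding bases was 26, between Glra2 and each of Glra1 and Glra3, and 15 between the transporters. No word of 50 bases of Glra2 or Glra3 occurred in a transcript of another gene, and 3.74% or less of the words of Slc6a5, Glra1, Glrb and Gphn did. Slc6a9 was the exception with 26.3%, and exons of Ccdc24 on the opposite strand cover 27.8% of its exon bases. Whether the counting used strand is not given in the sources used here, so the level of Slc6a9 is uncertain. Ccdc24 itself had 3 to 8 counts per library.

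Library depth ran from 13184234 to 15570064 counts. All 7 genes passed the filter on low counts that left 14770 genes for tests of spread. Levels are in RPKM, counts scaled to gene length and to the library total, which allows levels of different genes to be set side by side. CPM is the same scaling without length. Intervals are exact Poisson 95% intervals of a count. They cover counting error only, since reads that carry no molecular identifier need not come from different molecules. In a hemisphere, fewer cells of a type and less RNA per cell cannot be told apart.

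Slc6a5 (ENSMUSG00000039728, chromosome 7, 49910146 to 49963856), the transporter of glycine-releasing neurons, was the lowest of the 7 genes in 4 of 5 animals and stood far higher in animal 4. It had 42, 79, 39, 401 and 15 counts in animals 1 to 5. As levels these were 0.436, 0.737, 0.381, 3.58 and 0.158 RPKM. Animal 4 lay above all others and animal 5 below them, with counting intervals of 363 to 442 counts in animal 4 and 8.40 to 24.7 in animal 5 that lie apart. Animal 4 held 401 of the 576 counts of the gene. The highest animal exceeded the lowest by 20.3-fold on depth-scaled counts, the widest range of the 14770 genes tested, and by 4.22-fold without animal 4 or 8.93-fold without animal 5. Over all genes tested the median range was 1.19-fold. Genes near 0 counts in any library were not tested, so the rank holds only among genes that passed the filter. The serotonin transporter gene Slc6a4, for example, had 6, 117, 40, 41 and 2 counts in animals 1 to 5 and was not ranked.

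Slc6a9 (ENSMUSG00000028542, chromosome 4, 117834506 to 117875198), the transporter of astrocytes, differed little between the same animals. It had 661, 707, 716, 827 and 551 counts, or 9.61, 9.24, 9.81, 10.3 and 8.13 RPKM in animals 1 to 5, with a range of 1.27-fold. Animal 4 was again highest and animal 5 lowest, but the counting intervals of animals 1, 2, 3 and 4 overlap, and that of animal 5 overlaps that of animal 2. Slc6a9 exceeded Slc6a5 in every animal, by 22.0, 12.5, 25.7, 2.89 and 51.5 times in animals 1 to 5. The log2 ratio, with 0.1 RPKM added to each, was 3.70 ± 1.34 (SD, n = 5; exact two-sided sign-flip p = 0.0625, adjusted p = 0.0724). The value of 0.0625 is the smallest that 5 animals allow, so none of the 22 ratios tested here can pass 0.05.

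**Figure D1:**
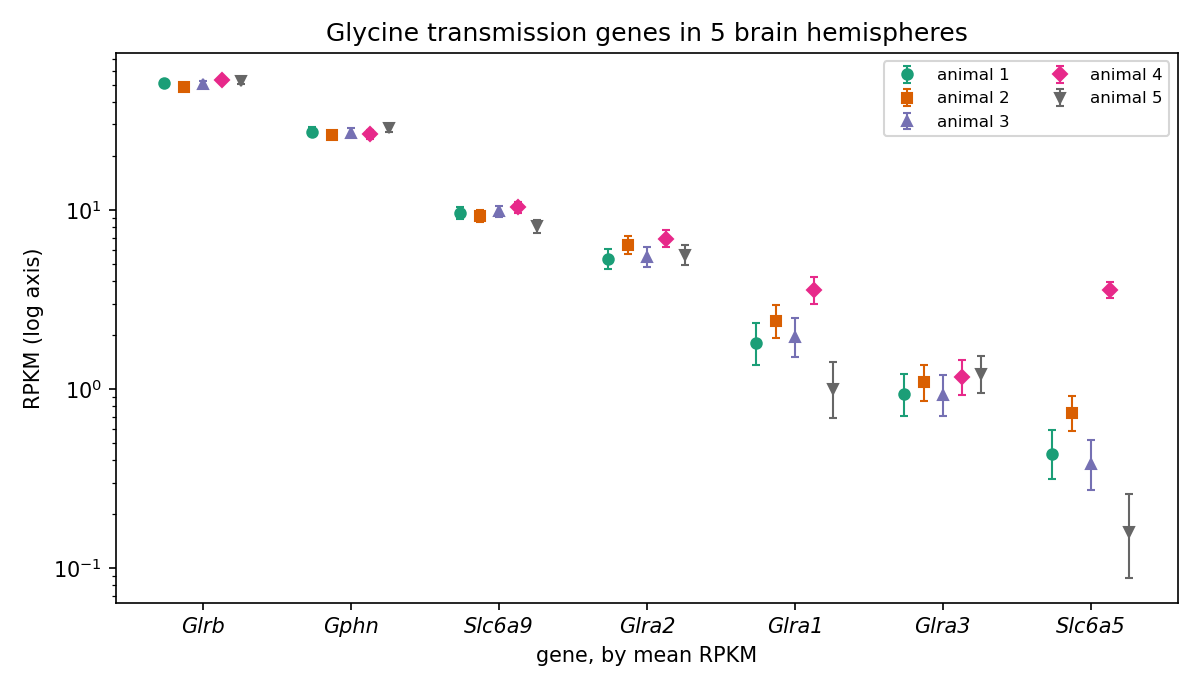
RPKM (vertical log axis) of the 7 glycine transmission genes (horizontal axis, ordered by mean), with 1 point per animal and bars for the exact Poisson 95% interval of its count. Glrb and Gphn lie close together across animals, whereas Slc6a5 runs from 0.158 RPKM in animal 5 to 3.58 in animal 4.

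The vesicular carrier gene Slc32a1, which glycine and GABA neurons share, gave a measure of inhibitory neurons against which to set Slc6a5. It had 44.6, 41.7, 41.6, 44.4 and 40.9 RPKM in animals 1 to 5, a range of 1.10-fold. Slc6a5 amounted to 0.978%, 1.77%, 0.917%, 8.06% and 0.387% of the Slc32a1 level in animals 1 to 5. Animals 4 and 5 were the extremes of this share, as they were for Slc6a5 itself.

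Among the receptor genes, the beta subunit stood far above the alpha subunits. Glrb (ENSMUSG00000028020, chromosome 3, 80843599 to 80913660) had 51.0, 48.7, 50.4, 52.8 and 52.3 RPKM in animals 1 to 5, a mean of 51.1 ± 1.65 RPKM (SD, n = 5) from 3180 to 3830 counts per library. Its range of 1.10-fold was narrower than that of 81.9% of the genes tested. Summed over Glra1, Glra2 and Glra3, the alpha subunits reached 8.07, 9.84, 8.36, 11.6 and 7.83 RPKM. The beta level exceeded this sum by 6.33, 4.95, 6.03, 4.54 and 6.68 times in animals 1 to 5. The log2 ratio was 2.48 ± 0.238 (SD, n = 5; exact two-sided sign-flip p = 0.0625, adjusted p = 0.0724). The excess was smallest in animals 4 and 2, which had the highest sums of alpha subunits.

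Glra2 (ENSMUSG00000018589, chromosome X, 165129017 to 165327393), the alpha subunit known for its high level in the developing brain and in the forebrain, was the most abundant alpha subunit in every animal. It had 5.34, 6.36, 5.48, 6.91 and 5.61 RPKM, from 225 to 339 counts, with a range of 1.29-fold. Animals 4 and 2 were highest, and the counting interval of animal 4, 6.20 to 7.69 RPKM, overlaps those of animals 2, 3 and 5. Glra2 made up 59.4% to 71.7% of the summed alpha level.

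Glra1 (ENSMUSG00000000263, chromosome 11, 55514238 to 55608198), the main alpha subunit of adult brainstem and spinal cord and a gene of startle disease, had 58, 86, 67, 134 and 32 counts in animals 1 to 5. As levels these were 1.80, 2.39, 1.95, 3.57 and 1.01 RPKM. The animals stood in nearly the same order as for Slc6a5, with 4 highest, 2 second and 5 lowest, and only animals 1 and 3 changed places. The range of 3.41-fold became 2.28-fold when animal 4 was left out and 1.945-fold when animal 5 was, and 0.0948% of the genes tested had a wider one. Counting intervals were 2.99 to 4.22 RPKM in animal 4, 1.91 to 2.96 in animal 2 and 0.688 to 1.42 in animal 5, so none of these overlap. The interval of animal 1, 1.36 to 2.32 RPKM, overlaps those of animals 2, 3 and 5. That of animal 3, 1.51 to 2.48 RPKM, overlaps those of animals 1 and 2. An annotated gene on the opposite strand, Gm12236, covers 5.84% of the exon bases of Glra1.

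Glra3 (ENSMUSG00000038257, chromosome 8, 55940460 to 56130070), an alpha subunit known from the dorsal horn of the spinal cord, was the least abundant receptor gene on average. It had 57, 74, 60, 83 and 73 counts, or 0.933, 1.09, 0.925, 1.17 and 1.21 RPKM in animals 1 to 5. The counting intervals of all animals overlap, and here animal 5, lowest for Slc6a5, Slc6a9 and Glra1, was the highest. Its length is uncertain, with 4566 bases recovered from the deposited tables against 9208 bases of annotated exons in GENCODE M21.

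Among the alpha subunits, the share of Glra1 in the summed level had the largest SD between animals. It was 6.39 percentage points, against 4.39 for Glra2 and 2.11 for Glra3. The set was selected on the spread of Glra1, so this is a description and no finding. The share of Glra1 was 22.3%, 24.3%, 23.4%, 30.6% and 12.8% in animals 1 to 5. Glra2 exceeded Glra1 by 2.97, 2.66, 2.80, 1.94 and 5.58 times, with a log2 ratio of 1.53 ± 0.522 (SD, n = 5; exact two-sided sign-flip p = 0.0625, adjusted p = 0.0724). Glra1 lay above Glra3 in 4 of 5 animals, with a log2 ratio of 0.85 ± 0.660 (exact two-sided sign-flip p = 0.125, adjusted p = 0.131) that turned to -0.25 in animal 5.

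**Figure D2:**
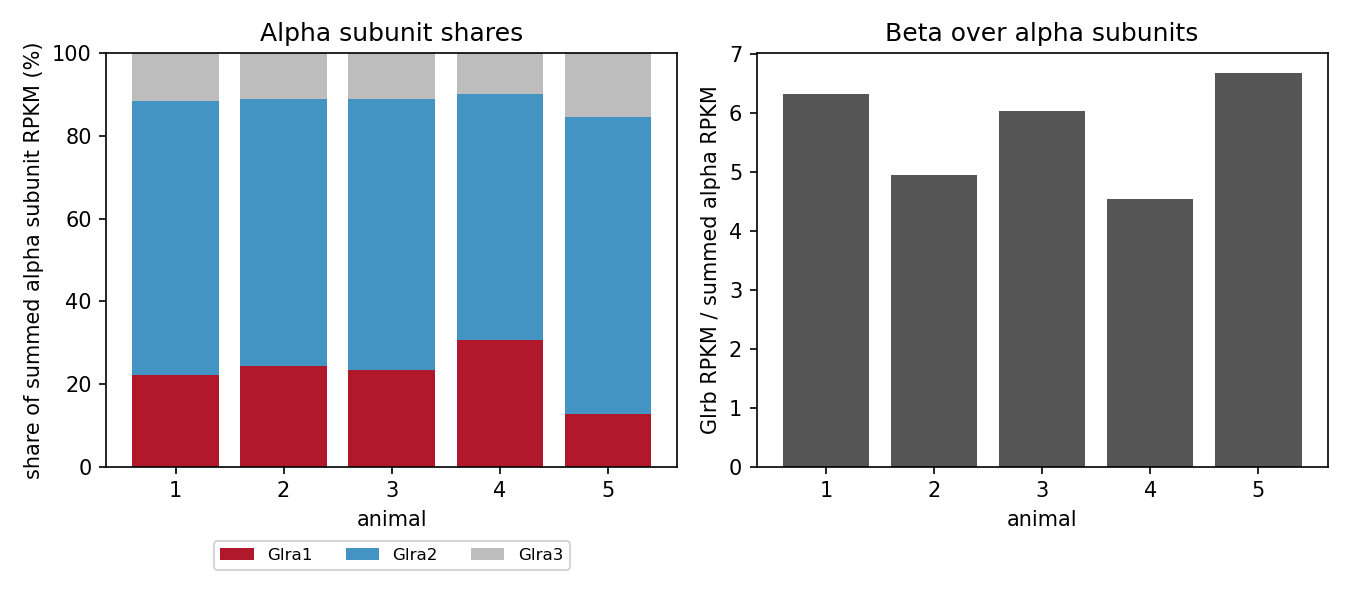
Left, the share (percent) of Glra1, Glra2 and Glra3 in the summed RPKM of the alpha subunits in each animal; right, Glrb RPKM divided by that sum. Glra1 takes 12.8% in animal 5, its smallest share, and 30.6% in animal 4, which also has the smallest beta to alpha ratio (4.54).

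Gphn (ENSMUSG00000047454, chromosome 12, 78226379 to 78684772), the gephyrin gene, was as steady as Glrb. It had 27.3, 26.3, 27.0, 26.4 and 28.7 RPKM in animals 1 to 5, from 1242 to 1395 counts, with a range of 1.10-fold. Animal 5, with the least Slc6a5, had the most Gphn. Glrb exceeded Gphn by 1.87, 1.85, 1.87, 2.004 and 1.82 times in the same animals. The log2 ratio of 0.91 ± 0.0529 (SD, n = 5; exact two-sided sign-flip p = 0.0625, adjusted p = 0.0724) had the smallest SD of the 22 ratios. That SD does not cover gene length, which for Gphn was 3397 bases as recovered and 3749 bases of annotated exons. With annotated exon lengths the ratio was 1.05.

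By mean level the order of the 7 genes was Glrb, Gphn, Slc6a9, Glra2, Glra1, Glra3 and Slc6a5. The first 5 of these kept their order in every animal, while Slc6a5 reached the level of Glra1 in animal 4 (3.58 and 3.57 RPKM). Of the 22 ratios, 19 had the same sign in all 5 animals. The neighbours Glra3 and Slc6a5 could not be ordered beyond their spread (log2 ratio 0.67 ± 1.41, positive in 4 of 5 animals, exact two-sided sign-flip p = 0.375, adjusted p = 0.375). With annotated exon lengths this ratio turned to -0.22, and without any length adjustment Glra1 and Glra3 were level (log2 ratio -0.017).

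**Figure D3:**
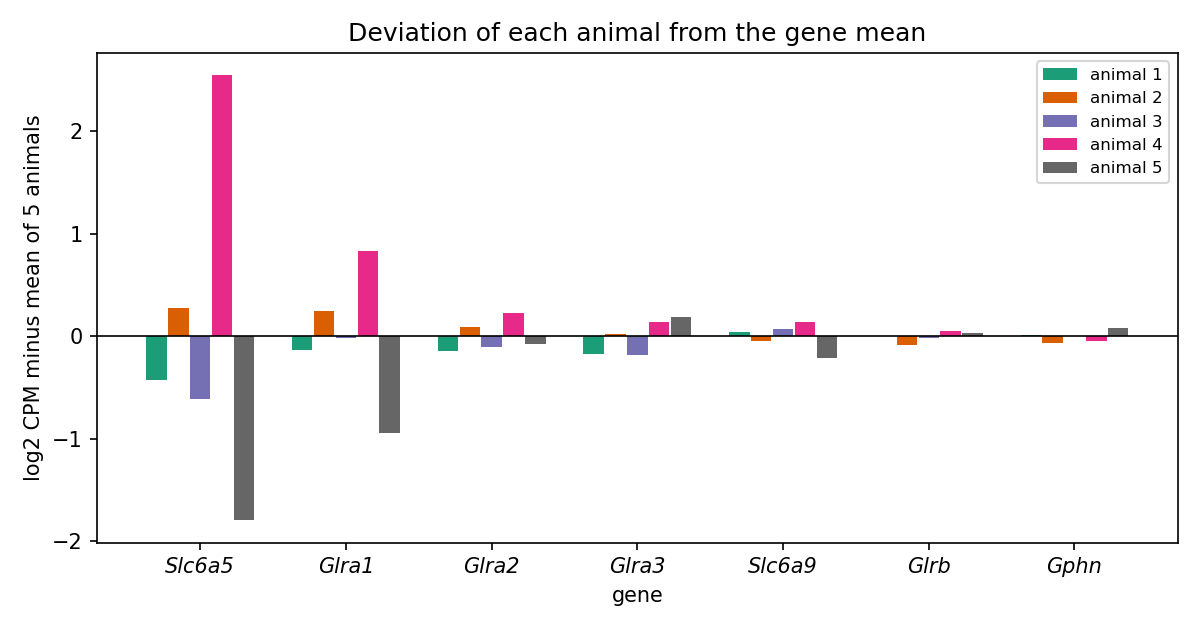
Depth-scaled log2 CPM of each animal minus the mean of the 5 animals (vertical axis), with 1 bar per animal for each gene. Slc6a5 and Glra1 share a high animal 4 (2.55 and 0.83) and a low animal 5 (-1.79 and -0.94), while the bars of Glrb and Gphn stay between -0.08 and 0.08.

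Of the 7 genes, 2 (Slc6a5 and Glra1) had a range of at least 2-fold, against 2.09% of all genes tested, and 1 of 7 (Slc6a5) was called more variable than the abundance trend by edgeR's quasi-likelihood dispersion, against 0.305% of all genes tested (45 of 14770). Because these spreads guided the choice of genes, nothing is read from either count. Without animal 4 no member was called, limma called none in all 5 animals, and without animal 2 edgeR called both Slc6a5 and Glra1. Without animal 5 the only range of 2-fold was that of Slc6a5. Over the 7 genes, 5 were highest in animal 4, against 20.9% of all genes tested, and 3 were lowest in animal 5, against 23.0%. Slc6a5 and Glra1, on whose spread the set was selected, are in both of these counts, so nothing is read from them either.

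**Figure D4:**
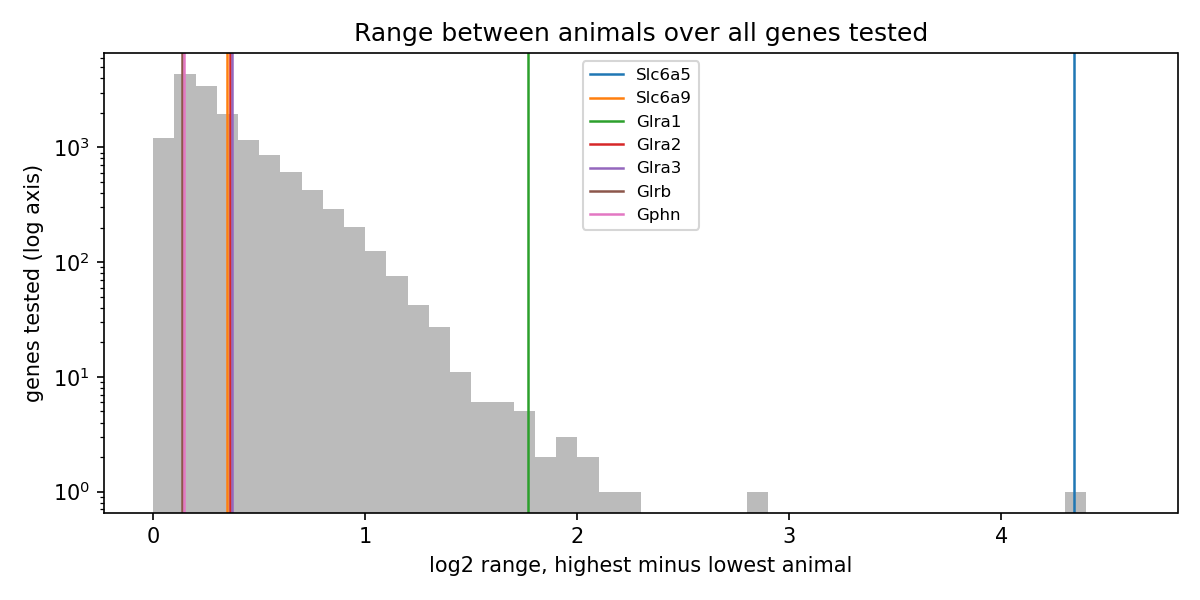
Number of genes (vertical log axis) by the log2 difference between the highest and the lowest animal (horizontal axis) for the 14770 genes tested, with lines at the 7 glycine transmission genes. Slc6a5 (4.34) lies at the far right and Glra1 (1.77) in the sparse upper part, whereas Glrb (0.14) and Gphn (0.14) lie on the left.

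Other genes of glycine handling and of the inhibitory synapse held no gene called more variable than the trend (edgeR quasi-likelihood dispersion, adjusted over all genes), against 0.305% of all genes tested, a share at which so few genes would seldom hold a call. The lists had 11 tested genes of glycine and serine metabolism, 10 of related carriers, 14 of the inhibitory postsynapse, 10 of molybdenum cofactor synthesis and use, in which gephyrin has its second role, and 7 NMDA receptor and D-serine genes. At an unadjusted p under 0.05 there were 1, 0, 0, 0 and 1 of them above the trend, against 5.43% of all genes tested (802 of 14770). None of these genes was called more variable in any of the 10 alternatives run, limma and DESeq2 among them. Their median ranges were 1.18-fold, 1.13-fold, 1.13-fold, 1.31-fold and 1.16-fold, so that of the molybdenum cofactor list lay above the 1.19-fold of all genes tested and the others below it. Shmt1, a serine and glycine converting enzyme named after its values were seen, ranged over 1.66-fold. Dld, a subunit of the glycine cleavage system, stood at 61.1 ± 2.34 RPKM and Gatm, which uses glycine to make the creatine precursor, at 38.5 ± 3.31 RPKM (SD, n = 5). The light chain gene Dynll2, whose product binds gephyrin, reached 433 ± 12.6 RPKM, and the inhibitory synaptic factor Insyn1 65.4 ± 3.41. The carrier Slc6a17 lay at 68.5 ± 1.22 RPKM. The obligatory NMDA subunit Grin1, at which glycine binds, stood at 34.5 ± 1.94 and Grin2b at 28.3 ± 2.05. Among the molybdenum cofactor genes, Marc2, whose product uses the cofactor, had the highest level at 7.51 ± 0.332 RPKM, followed by the synthesis gene Mocs3 at 5.34 ± 0.571.

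Some genes of cerebellar and noradrenergic cells had their highest count in animal 4, the animal with the most Slc6a5 and Glra1. The 5 given first were picked after their values were seen. They were not tested, because the filter asks for enough counts in every library and each had too few in some. Such a filter also removes genes that are high in 1 animal and near 0 in others. Gabra6, a GABA-A subunit of cerebellar granule cells, had 1, 1, 0, 64 and 0 counts in animals 1 to 5. Cbln3, another granule cell gene, had 6, 10, 4, 73 and 6, and the cadherin gene Fat2 12, 37, 4, 109 and 8. The other libraries had 37 counts or fewer of each. The noradrenaline genes Dbh (10, 8, 11, 43 and 7 counts) and Slc6a2 (14, 4, 5, 51 and 0 counts) also had their highest value there. The vesicular monoamine transporter gene Slc18a2 of the same list was highest in animal 2 (5.55 RPKM, against 5.12 in animal 4). Th was nearly level between animals 2 and 4 (6.62 and 6.55 RPKM). On the depth-scaled counts used for ranges, 3 of the 4 tested genes of this list were highest in animal 4, against 20.9% of all genes tested. The cerebellar list of 13 genes summed to 246, 271, 241, 310.2 and 239.9 CPM, with Gabra6 at 0 in animals 3 and 5. On the same depth-scaled counts, 7 of its 8 tested genes were highest in animal 4, against 20.9% of all genes tested. The list was chosen with earlier results of these data known, so this count is a description. Its 8 tested members held 1 call (against 0.305% of all genes tested), the synaptic organiser Cbln1 (8.84, 10.0, 9.20, 12.7 and 6.17 RPKM, edgeR adjusted p = 0.0461, but 0.320 without animal 4 and 0.547 without animal 5).

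Hox genes, which mark hindbrain and spinal cord position in the adult, were at the edge of detection. The 21 genes of this list together had 6, 28, 3, 32 and 6 counts in animals 1 to 5, with 16, 10, 19, 9 and 16 of them at 0. Animals 4 and 2, highest for Slc6a5 and Glra1, were highest here too. A list drawn up for fast-conducting brainstem neurons summed to 1088, 970, 970, 1183 and 897 CPM. Like the other lists it was chosen with earlier results of these data known, so its count of calls is a description. It shares Pvalb with the list of GABA neuron genes. Of its genes, 3 of 9 were called, against 0.305% of all genes tested. They were Syt2, a calcium sensor of release (edgeR adjusted p = 0.00781, and 0.0539 without animal 4), Spp1 (0.0314, and 0.594 without animal 4) and Pvalb (0.0444, and 0.0510 to 0.217 without any 1 animal). Spp1 was also past the threshold only with animals 3 and 5 included (0.0552 and 0.0982 without them). Syt2 was highest in animal 4 (21.4 RPKM) and lowest in animal 5 (13.2), and Pvalb highest in animal 4 (62.3) and lowest in animal 2 (40.0).

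The 7 tested genes of the serotonin list had mean log2 deviations of -0.30, 0.23, 0.20, 0.23 and -0.36 in animals 1 to 5, with animals 1 and 5 low. Tph2, the enzyme of serotonin synthesis in neurons, had 15, 140, 71, 66 and 23 counts in animals 1 to 5 and was highest in animal 2 (1 of 7 tested members called, against 0.305% of all genes tested, edgeR adjusted p = 0.00179), and its transporter gene Slc6a4 had 6, 117, 40, 41 and 2. For Tph2 and Slc6a4 animal 4 was not the highest, while the transcription factor gene Gata3 and the monoamine oxidase gene Maob of the same list were highest in animal 4 (1.03 and 12.2 RPKM). None of the 5 genes called in these lists was called by limma (adjusted p 0.115 for Tph2, 0.533 for Syt2, 0.240 for Spp1, 0.347 for Cbln1 and 0.359 for Pvalb). Among 4 tested catecholamine genes and 6 motor and cholinergic genes none was called, with 3 and 2 at an unadjusted p under 0.05, against 5.43% of all genes tested. Th, the enzyme of catecholamine synthesis, had its lowest level in animal 5 (3.69 RPKM). At the same threshold 8 of 9 fast-conducting neuron genes, 4 of 7 serotonin genes and 3 of 8 cerebellar genes lay above the trend, and the oligodendrocyte, astrocyte and long nuclear RNA lists were far above that share too. The oligodendrocyte list had no call in 10 genes (7 at an unadjusted p under 0.05) and its highest sum in animal 4 (6862 CPM, against 5555 to 5824 in the others), led by Mbp with 336 RPKM there. On depth-scaled counts, 9 of these 10 genes were highest in animal 4, against 20.9% of all genes tested. The astrocyte list, the cells that express Slc6a9, had no call in 11 genes (5 unadjusted) and sums from 6197 to 6528. GABA neuron genes summed to 1610 to 1680, with Pvalb as the 1 call in 10 genes, and forebrain excitatory neuron genes to 1967 to 2184, lowest in animal 4, with no call in 11. Long nuclear RNAs, a sign of library quality, had no call in 6 genes (5 unadjusted) and summed to 3018 CPM in animal 2, the highest, and 2411 in animal 4, the lowest. How much of the spread of Slc6a5 and Glra1 goes with these regions or with library quality was not tested.

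**Figure D5:**
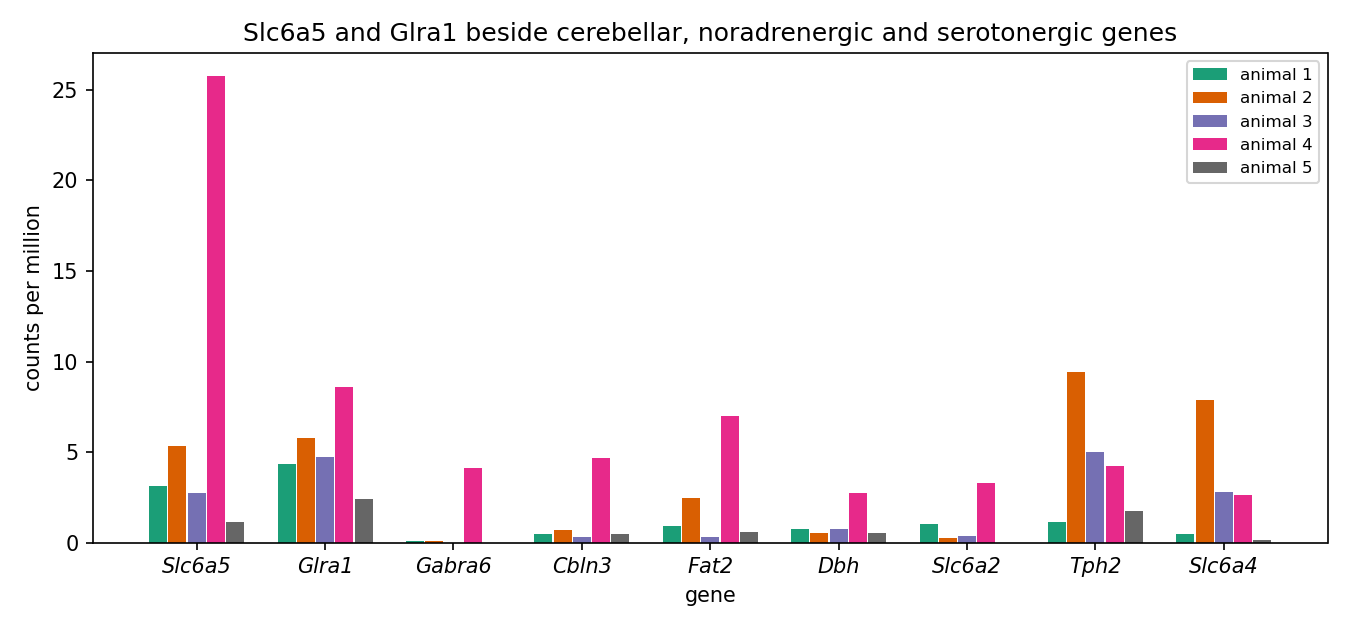
CPM (vertical axis) of Slc6a5 and Glra1 beside cerebellar (Gabra6, Cbln3, Fat2), noradrenergic (Dbh, Slc6a2) and serotonergic (Tph2, Slc6a4) genes, with 1 bar per animal. Animal 4 is highest for the first 7 genes (25.8 for Slc6a5 and 4.11 for Gabra6), and animal 2 for Tph2 (9.41) and Slc6a4 (7.86).

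The genes with patterns nearest to Slc6a5 and Glra1 were sought among 13255 protein-coding genes with a mean count of at least 20, by the root mean square distance between log2 deviations over the 5 animals. None came close to Slc6a5, whose nearest genes were Gbp4 (0.86), Glra1 (0.91), Apoc1 (0.96), the hypothalamic transcription factor gene Otp (0.98) and the prohormone gene Pomc (0.98). Their ranges, from 2.79-fold to 3.80-fold, were all far below that of Slc6a5. The distance depends on the size of the range, and Slc6a5 has the widest of all genes tested. Large distances to it thus follow in part from the measure itself. Glra1 was also selected on its spread, so nothing is read from its place here. The nearest genes to Glra1 were the kinase gene Lck (0.13), Apoc1 (0.18), Sh3bgr (0.18), the transcription factor gene Ebf2 (0.22) and Fignl2 (0.23). These are low genes, with 10 to 50 counts per library, and none was called (edgeR adjusted p 0.733 to 0.989). All of these genes have mean counts below 100, so a minimum of 100 removes every one of them.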

How the data were processed

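All 5 libraries were made from mRNA of the right hemisphere, per the labels. The submitters' processing notes list GRCm38 and the tools featureCounts 1.4.6-p4, STAR 2.4.1d and CASAVA 1.7. Not given in the sources used here are the gene annotation and how strand and reads with several matches were handled. Values in the deposited count table are whole numbers per Ensembl gene, not normalized. The deposited RPKM values match, for 99.9991% of entries, a division by the 5 totals in rotation from row to row, so 80% of entries used the total of another library (totals differ by up to 1.18 times). RPKM was therefore recomputed from the counts, the matching total and a gene length recovered from both tables, and the deposited values served as an alternative. All 10 pairs of libraries differed by more than counting noise (chi-square per degree of freedom 2.42 to 4.18).

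The fit across genes used edgeR 4.0.16 under R 4.3.3 (filterByExpr, TMM, robust legacy glmQLFit, intercept only). The quasi-dispersion over its trend was set against an F distribution (4 and 15.3 degrees of freedom), separately for each tail, with Benjamini-Hochberg adjustment over 14770 genes and a threshold of 0.05, after a test on simulated data. Ranges are differences of log2 CPM after TMM scaling (prior count 2). Log2 ratios of RPKM plus 0.1 were tested with exact two-sided sign-flip tests over 32 sign patterns, adjusted over 22 ratios. Coding sequences were aligned with MAFFT 7.526. DESeq2 1.42.0 and limma 3.58.1 served as alternatives, with other scalings, pseudocounts, lengths and filters and leaving out each animal. The 7 genes and the 16 related lists were chosen with earlier results of these data known. Genes named are the 7 members, the 2 most abundant and up to 4 called members of each list, and the 5 genes nearest to Slc6a5 and to Glra1. Slc6a4, Gabra6, Cbln3, Fat2, Dbh, Slc6a2, Slc18a2, Gata3, Shmt1, Ccdc24, Gm12236 and Glra4 were named after their values were seen. Some genes that the rule takes are given by their list only. Of the listed symbols, Insyn2a, Mtarc1, Mtarc2 and Hb9 were not matched.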

Additional observations from a re-analysis of the deposited data

Results flagged for a closer look

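In groups of 5 animals, a value was marked where its gap to the nearest other animal, divided by the range of the group, exceeded Dixon's critical value of 0.71. Of 58 values tested, 4 were marked, and chance marks about 1 in 20. Slc6a5 had a gap of 0.831 of its range, with animal 4 at 3.58 RPKM and the next animal at 0.737; the spread of this gene guided the choice of genes, so its mark is no evidence. The log2 ratio of Glrb over Gphn had a gap of 0.730, with animal 4 at 0.9998 and the next at 0.899. Glra3 as a percentage of the summed alpha subunits had a gap of 0.718, with animal 5 at 15.5% and the next at 11.6%. That sum includes Glra1, whose spread also guided the choice of genes, so this mark is no evidence either. Gatm had a gap of 0.717, with animal 4 at 44.1 RPKM and the next at 37.9.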

How the results depend on the processing

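Of 198 recomputed log2 ratios, 196 kept their sign. The exceptions were Glra3 over Slc6a5 with annotated exon lengths (-0.22) and Glra1 over Glra3 without length (-0.017). For the 19 ratios with the same sign in all 5 animals, leaving out an animal or a larger pseudocount could not change the sign. The count of 196 is therefore no measure of stability. All 42 recomputed mean levels moved by less than 1 SD, but leaving out 1 of 5 animals can never move a mean that far. For Slc6a5 the SD exceeds the mean of 1.06 RPKM, which became 0.428 RPKM without animal 4. Leaving out an animal gave a log2 range of 2.08 to 4.34 for Slc6a5 (lowest without animal 4) and 0.96 to 1.77 for Glra1 (lowest without animal 5), and 1 to 2 members with a 2-fold range. The number of genes called more variable was 45, against 249 with no low-count filter, 19 with a prior that is not robust, 10 with limma, 101 DESeq2 dispersion outliers and 18 to 44 without an animal (26 without animal 3, 18 without animal 5). For the members, the count of 1 became 2 with no filter and with DESeq2, 0 with limma and 0 to 2 without an animal. For the related lists, 5 genes were called, against 23 with no filter, 2 with a prior that is not robust, 0 with limma, 11 with DESeq2 and 1 to 5 without an animal (1 without animal 4, 2 without animal 5, 3 without animal 3). The cause was not tested. Conditions could not be compared in pairs because there is only 1 group, while the log2 ratios between genes were taken within each animal. Depth limits Slc6a5, Glra1 and Glra3 most, with as few as 15, 32 and 57 counts in a library.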

Other observations

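Glra4, a further alpha subunit gene of the mouse that is not among the 7 genes, had 4, 8, 6, 13 and 3 counts in animals 1 to 5, a mean of 0.231 ± 0.119 RPKM (SD, n = 5). It lay below Glra3 in every animal. Animal 4 was highest, animal 2 second and animal 5 lowest, as for Glra1, although counts this low carry wide counting error.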
